A study of Mus musculus with 12 samples.

Results

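The acute phase proteins are plasma proteins that hepatocytes, the main cells of the liver, make in changed amounts during inflammation. The genes followed here are Saa1, Saa2, Saa3 and Saa4 (serum amyloid A), Orm1 and Orm2 (orosomucoid), Hp (haptoglobin), Hpx (hemopexin), Lcn2 (lipocalin 2) and Apcs (serum amyloid P component). Every probe set whose only platform gene symbol is 1 of these 10 names was taken, which gave 12 probe sets of the 22626 tested on the arrays, and 10 genes of 12393. Saa1 and Saa4 had 2 probe sets each and the other 8 genes had 1. The rule uses gene names only, not signals.

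Liver RNA of 12 male mice aged 6 weeks was measured, 3 mice in each of 4 groups. All mice carried a human alpha1-antitrypsin transgene that is inducible in hepatocytes only. The M line carries the wild-type form of this secreted protease inhibitor and the Z line the mutant form. Doxycycline keeps the transgene off. In the groups M off (M1 in the labels) and Z off (Z1) the drug was given in the drinking water at 40 µg/mL from conception until death. In the groups M on (M4) and Z on (Z4) no doxycycline was given, so that every mouse with the transgene on also lacked the drug. M and Z mice are different transgenic lines, so the form of the protein and the line cannot be told apart. The promoter driving the transgene and the strain are not given in the sources used here. The comparison of on with off within a line asks what changes when the human protein is made and the drug is absent. The comparison of lines asks how the lines differ, the form of the protein included. Signals are the deposited linear intensities, differences are on the log2 scale, and a call is a Benjamini-Hochberg adjusted p under 0.05 in limma over all 22626 probe sets. An array signal does not separate a change in RNA per cell from a change in the number of cells of a type.

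In mice, as in other mammals, macrophage cytokines, above all interleukin 6 and interleukin 1, reach the hepatocyte during infection or injury and switch on acute phase genes through STAT3, NF-kappaB and C/EBP transcription factors. Saa1 and Saa2 encode the circulating, lipoprotein-bound serum amyloid A forms and are among the most strongly inducible genes of the liver, whereas Saa4 is the constitutive form. Mouse Saa3 is made largely by macrophages, fat and epithelia, and Apcs, a pentraxin, is the major acute phase protein of mice.

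The Saa genes lie together on chromosome 7 of GRCm38.p6, within 42316 bases between positions 46711998 and 46754313. Saa1 is annotated at chr7:46740497-46743181, Saa2 at chr7:46751833-46754313, Saa3 at chr7:46711998-46719615 and Saa4 at chr7:46727992-46732603. Orm1 (chr4:63344556-63348163) and Orm2 (chr4:63362449-63365877) are neighbours on chromosome 4. Hpx lies at chr7:105591611-105600116, Hp at chr8:109575128-109579172, Lcn2 at chr2:32384637-32387739 and Apcs at chr1:172893961-172895054. RefSeq promoter windows of 300 bases (250 before and 50 after the annotated start) matched 8 of the 10 genes, all except Hp and Orm1. The 250 bases before the start are printed for Saa1, Saa2, Saa3 and Lcn2, because the results below turn on how these 4 differ from one another. Capitals mark the letters TTGCNNAA on either strand, the core of a C/EBP site, where N is any base. The windows are chr7:46742981-46743230 on the minus strand for Saa1, chr7:46751583-46751832 on the plus strand for Saa2, chr7:46715677-46715926 on the minus strand for Saa3 and chr2:32387740-32387989 on the minus strand for Lcn2. The Saa1 and Saa3 windows belong to starts inside the annotated spans of their genes. The bases printed for Saa1 thus lie partly, and those for Saa3 wholly, inside the annotated gene.
Saa1: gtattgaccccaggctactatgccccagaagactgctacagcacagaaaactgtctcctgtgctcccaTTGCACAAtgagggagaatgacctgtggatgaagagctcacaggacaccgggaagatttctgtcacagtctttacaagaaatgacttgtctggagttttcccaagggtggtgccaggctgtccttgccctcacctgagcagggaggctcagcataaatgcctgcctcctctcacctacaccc
Saa2: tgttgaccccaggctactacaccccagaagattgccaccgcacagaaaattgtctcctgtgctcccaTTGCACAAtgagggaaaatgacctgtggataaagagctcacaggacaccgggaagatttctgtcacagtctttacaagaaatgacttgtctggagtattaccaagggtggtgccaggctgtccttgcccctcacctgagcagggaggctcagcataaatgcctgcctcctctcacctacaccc
Saa3: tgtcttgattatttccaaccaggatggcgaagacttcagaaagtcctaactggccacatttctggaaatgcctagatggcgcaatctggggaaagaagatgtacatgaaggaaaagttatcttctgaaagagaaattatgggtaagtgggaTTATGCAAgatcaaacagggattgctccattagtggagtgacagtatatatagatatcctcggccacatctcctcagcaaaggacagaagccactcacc
Lcn2: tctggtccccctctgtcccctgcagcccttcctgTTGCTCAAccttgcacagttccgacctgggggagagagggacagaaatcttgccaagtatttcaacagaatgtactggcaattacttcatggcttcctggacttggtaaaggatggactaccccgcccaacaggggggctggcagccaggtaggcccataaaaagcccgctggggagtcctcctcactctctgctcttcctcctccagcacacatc

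The Saa1 and Saa2 windows were 95.3% identical over 301 aligned positions, and both held the same letters TTGCACAA, 182 bases before the start in Saa1 and 183 in Saa2. The Saa3 window was 54.2% identical to that of Saa1 and held TTATGCAA 99 bases before the start. Lcn2 held TTGCTCAA at 216 bases. At least 1 C/EBP match was found in 7 of the 8 member windows, the exception being Apcs, against 10.8% of all 32851 mouse windows of that length. The STAT letters TTCNNNGAA were in the Apcs window only (8.30% of all windows), TATAAA in the Orm2 window only (13.6%), and the NF-kappaB consensus in none (8.46%). No match overlapped a match of another motif. These motifs were picked from known roles with the expression values already seen, and a match is a run of letters, not a measured site. The identity of Saa1 and Saa2 also bears on the arrays. The second Saa1 probe set was designed from an accession that RefSeq now gives to Saa2, and its suffix, like that of the Saa2 probe set, marks probes shared with similar transcripts. Signals of those probe sets may therefore mix Saa1 and Saa2.

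Saa1 and Saa2 were high in 1 liver. On the first Saa1 probe set M off read 449.7, 307.8 and 260.8 and M on 402.4, 539.2 and 1065.6. Z off read 1054.2, 1589.5 and 587.7 and Z on 532.0, 441.9 and 6737.2. Replicate 3 of Z on read 12.7 times the median of its group, while the other 2 Z on livers lay below all 3 Z off livers. On the second Saa1 probe set Z on read 317.2, 286.9 and 8482.5, against 693.1, 714.3 and 364.7 in Z off. The M livers read 287.6, 295.9 and 631.5 with the transgene on and 388.9, 186.9 and 213.1 with it off. Saa2 gave the same picture. Z on read 100.4, 91.5 and 4508.4 and Z off 226.9, 186.6 and 203.6. M on read 112.1, 122.8 and 223.2 and M off 120.1, 76.0 and 77.4. That 1 liver held 95.9% of the summed Saa2 signal of its group and read 44.9 times the group median. The other 2 Z on livers again lay below every Z off liver.

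Lcn2, a siderophore-binding protein that withholds iron from bacteria and is made by hepatocytes and neutrophils, was dim on 11 arrays and bright on 1. Its signals were 5.8, 32.1 and 37.8 in M off, 54.3, 19.1 and 54.9 in M on, and 9.2, 16.2 and 36.9 in Z off. In Z on they were 13.7, 4.1 and 761.2, and the highest signal came again from replicate 3. It was 13.9 times the next highest of the 12 arrays. The median of its group, 13.7, was too dim for an exact fold: the ratio to it was 55.6 as deposited and 26.2 with 16 added to every signal. Below the 761.2 all Lcn2 signals were under 55, where small absolute differences make large log2 differences. For this reason the Z on and M on groups had opposite orders by arithmetic mean (260 ± 434 and 42.8 ± 20.5, SD, n = 3) and by mean log2 signal, which was lower in Z on by 0.14.

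**Figure D1:**
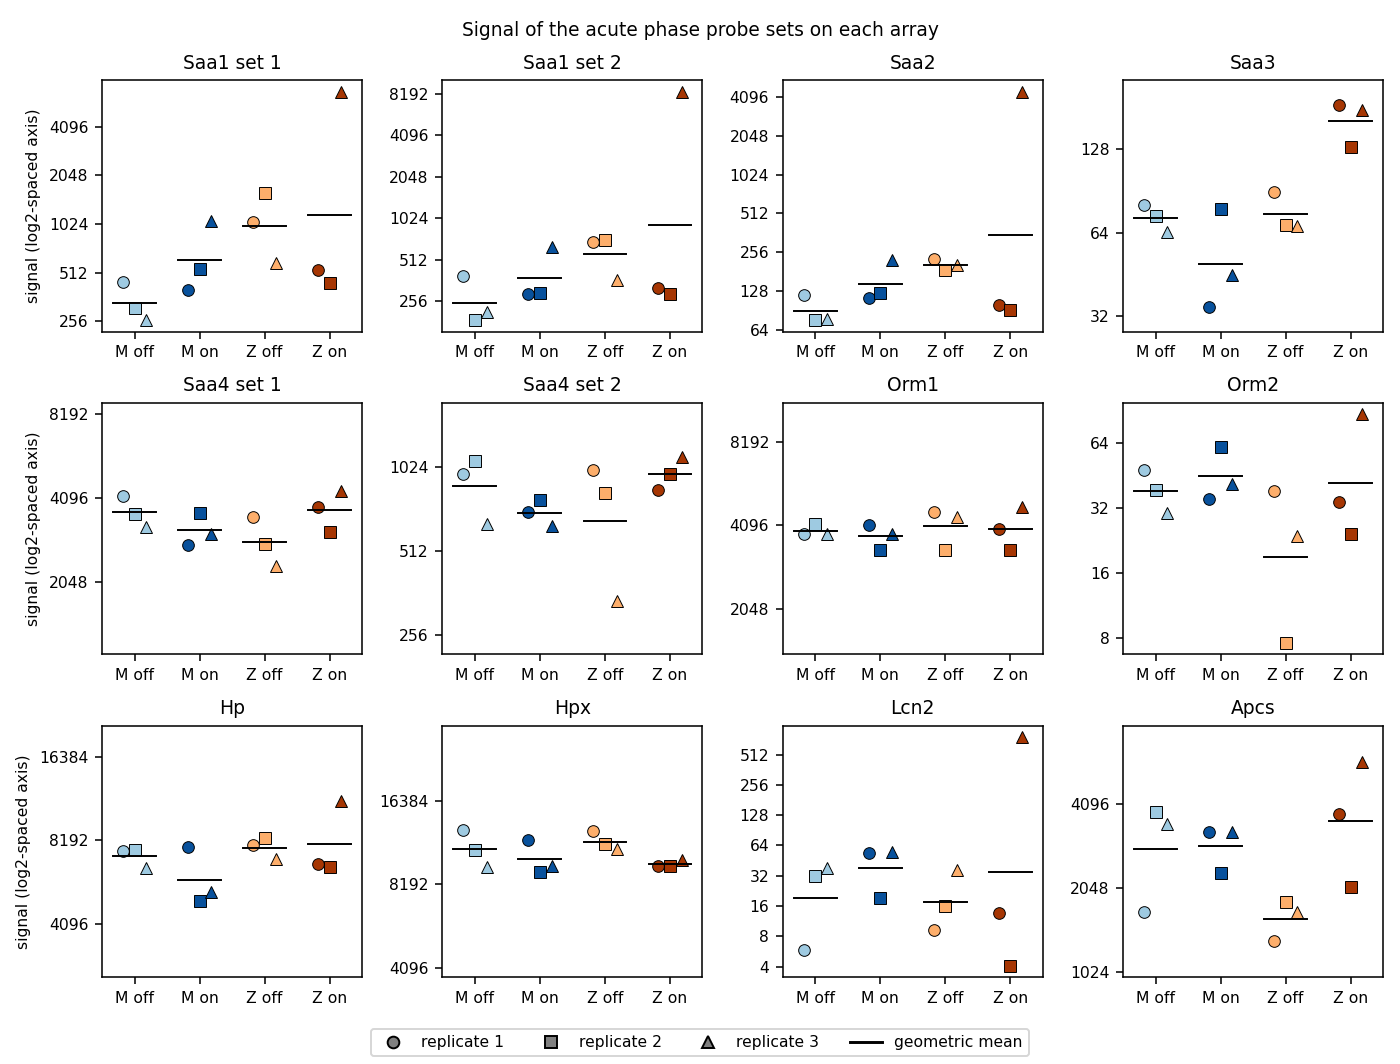
Signal of each of the 12 acute phase probe sets (log2-spaced vertical axis, scale set per panel) on each array, by group, with a different symbol for each replicate and a line at the geometric mean. In the Saa1, Saa2 and Lcn2 panels replicate 3 of Z on stands far above the other 11 arrays, whereas in the Saa3 panel all 3 Z on arrays, from 129.9 to 184.6, lie above the rest.

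Replicate 3 of Z on was the highest of the 12 arrays on 10 of the 12 member probe sets, against 6.34% of all probe sets. The exceptions were Saa3, highest in Z on replicate 1, and Hpx, highest in M off replicate 1. It lay at least 1 log2 unit above the median of its group on 5 member probe sets (both Saa1 sets, Saa2, Orm2 and Lcn2), against 4.34% of all probe sets. On each of the other 11 arrays at most 1 member probe set did so, Saa1 set 2 in M on replicate 3 and Lcn2 in Z off replicate 3. Of all 22626 probe sets, Lcn2, Saa2 and Saa1 set 2 had the 3 largest upward departures from the group median on that array, with and without 16 added to every signal. Lcn2 came before Saa2 as deposited and after it with the offset, which was chosen after seeing the data. Among the 14 with the largest departures as deposited, 4 were members, and the other 10 read at most 27.9 on that array. These ranks describe 1 array and carry no test.

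**Figure D2:**
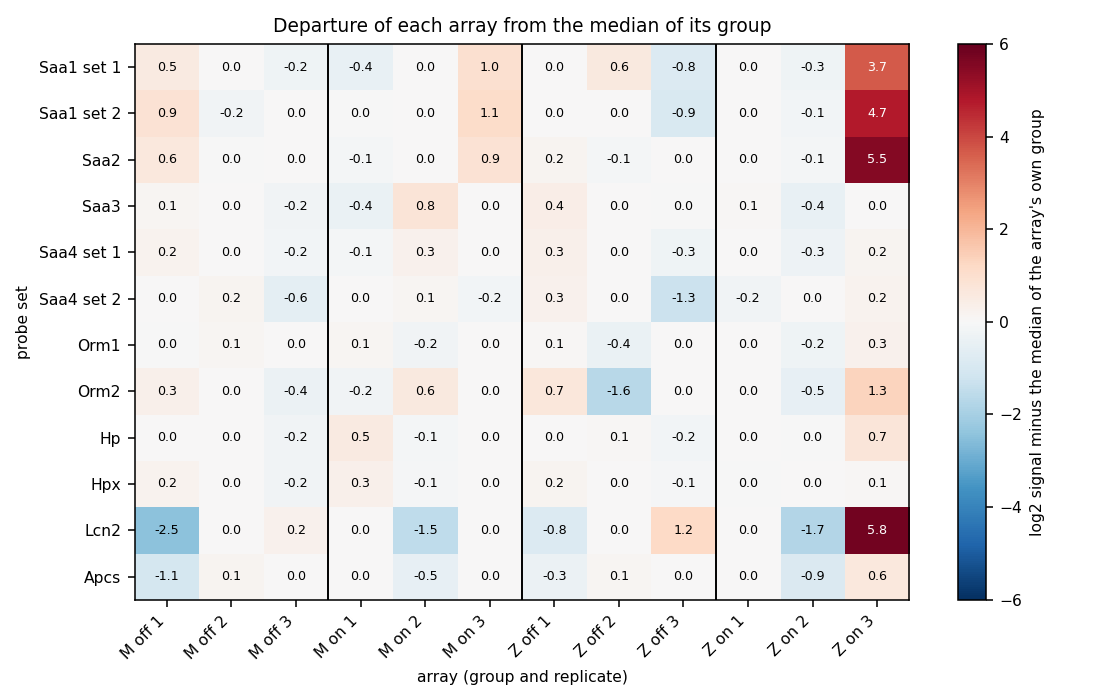
Log2 signal of each member probe set (rows) on each array (columns, labelled by group and replicate) minus the median of that array's own group, so that the middle replicate of each group is at 0. The column of Z on replicate 3 holds the largest values, 5.80 for Lcn2, 5.49 for Saa2 and 4.74 and 3.66 for the Saa1 probe sets.

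All other members rose less over their group median in that liver than Saa1, Saa2 and Lcn2. Among them, Saa3 lay at its group median and Apcs at 1.54 times it. Hp, which binds free haemoglobin, read 6748.9, 6571.6 and 11317.7 in Z on and 7855.7, 8319.0 and 7011.5 in Z off. The M livers read 7725.0, 4938.5 and 5325.1 (on) and 7476.8, 7562.2 and 6526.3 (off). The third Z on liver was 1.68 times its group median for Hp and the highest of the 12. Hpx, which binds free haem, read 9516.6, 9528.6 and 9981.0 in Z on, and here the same liver was only 1.05 times its group median. All 3 Z on livers lay below the Z off livers, at 12715.7, 11384.7 and 10933.3, but not below the M on livers, at 11818.6, 9033.8 and 9540.5. M off gave 12799.4, 10886.8 and 9417.7.

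Orm1, a lipocalin-fold plasma carrier of drugs and lipids, read 3967.0, 3347.8 and 4763.5 in Z on and 4579.9, 3351.6 and 4396.9 in Z off. The M livers spanned 3335.8 to 4135.5, so all 4 groups overlapped. Orm2, its neighbour, read 34.4, 24.2 and 87.3 in Z on, 38.6, 7.6 and 23.8 in Z off, and 30.3 to 61.6 over the 6 M livers. The liver with the high Saa signals was thus 2.54 times its group median for Orm2 and 1.20 times for Orm1. The constitutive Saa4 read 3818.4, 3101.7 and 4331.0 in Z on and 3487.0, 2801.9 and 2333.4 in Z off on its first probe set, and 843.8, 967.9 and 1117.5 against 999.2, 824.1 and 338.8 on its second. The M livers spanned 2784.5 to 4156.3 and 630.5 to 1081.2. Replicate 3 of Z on was 1.13 and 1.15 times its group median, and all groups overlapped except Z on and M on for the second probe set.

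Apcs separated the Z groups. Its signals were 3765.1, 2066.2 and 5813.8 in Z on and 1319.0, 1818.5 and 1672.5 in Z off. The lowest Z on liver lay above the highest Z off liver. M on, at 3257.9, 2310.9 and 3238.6, also lay wholly above Z off and overlapped Z on. M off, at 1674.3, 3849.8 and 3472.7, overlapped both Z groups, and Z off only through the liver at 1674.3. Z on exceeded M on by only 0.30 log2 units (adjusted p = 0.931 in limma), so Z off was the low group. The difference of Z on from Z off was 1.16 log2 units (SE 0.42, unadjusted p = 0.0191, adjusted p = 0.706 in limma), and 0.81 higher without replicate 3 of Z on (unadjusted p = 0.0806, adjusted p = 0.758). Z off lay 0.83 below M off (adjusted p = 0.686). Apcs was not called in any comparison.

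Saa3 was the 1 member probe set of 12 on which all 3 Z on livers read above all other 9, which held for 0.632% of all probe sets. Z on read 184.6, 129.9 and 176.7 and Z off 90.0, 68.1 and 67.8. M on read 34.6, 77.6 and 45.1 and M off 80.6, 73.7 and 64.2. The liver with the high Saa1 and Saa2 signals was the middle of the 3. The mean was 164 ± 29.6 for Z on and 75.3 ± 12.7 for Z off, against 52.4 ± 22.4 for M on and 72.8 ± 8.23 for M off (SD, n = 3). Z on exceeded M on by 1.71 log2 units (SE 0.297, 95% confidence interval 1.05 to 2.37), with an unadjusted p of 0.000202 and an adjusted p of 0.166 in limma. It exceeded Z off by 1.12 (SE 0.297, interval 0.45 to 1.78, unadjusted p = 0.00387, adjusted p = 0.627). Within the M line the difference was -0.55 (adjusted p = 1.000 as rounded), and the test of the difference between the lines gave 1.67 (SE 0.419, unadjusted p = 0.00276, adjusted p = 0.658). The first of these became a call in 2 alternatives, with an intensity trend and robust variances (adjusted p = 0.0201) and with only the brighter probe sets tested (adjusted p = 0.0304), while without replicate 3 of Z on it was 1.65 with an adjusted p of 0.311. The 3 comparisons share the Z on livers and are not independent.

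Markers of leukocytes were set beside Lcn2 and Saa3, since both genes are also made by such cells. Of 11 neutrophil markers 9 had a probe set. Their summed signal was 209.3, 247.3 and 270.2 in Z on, within the 137.8 to 310.9 of the other 9 arrays, and none was listed at 0. The single signals were dim, from 1.4 to 88.4, beside array medians of 38.7 to 47.0. No detection calls were used, so sums at this level do not show whether neutrophils were present. On replicate 3 of Z on, 3 of the 9 lay above the median of their group, 3 at it and 3 below. The individual markers given here were named after their values were seen. S100a8 and S100a9, calcium-binding proteins of neutrophils and monocytes, read 40.4 and 45.8 there, against at most 28.2 and 56.5 on any other array. The granule protein gene Ngp read 16 and the chemokine receptor gene Cxcr2 3.8, each the lowest of the 12 arrays, and Mpo, which encodes myeloperoxidase, read 60.8 within a range of 5.3 to 64.3 on the others. Of 12 Kupffer cell and macrophage markers 11 had a probe set. Their sum ran from 2302.6 to 2556.1 in Z on and from 2337.3 to 2674.5 in Z off, and over the M livers from 1934.2 to 2647.6 (on) and 2007.4 to 2351 (off). None of these 11 was listed at 0. By single markers, 9 were higher and 2 lower in Z on than in M on. The median log2 difference was 0.26, beside 0.004 over all probe sets. Against Z off, 4 were higher and 7 lower, with a median of -0.18 beside -0.03 over all. None of these markers was called. The sum of 11 hepatocyte markers ran from 111700 to 167737 over the 12 arrays and from 121428 to 149366 in Z on. Array quality measures also differed between groups. The 18S control probe set read 914.2 to 1491.7 in Z on, above the 93.9 to 767.5 of the other 9 arrays, which is the same separation as that of Saa3. The ratio of 3′ to 5′ actin signal was 5.16, 2.44 and 3.90 in Z on and 2.18 to 2.53 in Z off. It was 2.72 to 3.89 in M off and 3.09 to 4.38 in M on. Z off thus lay below both M groups, and Z on overlapped all other groups. The part of these markers and quality measures in the Lcn2, Saa3 and Apcs results was not tested.

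**Figure D3:**
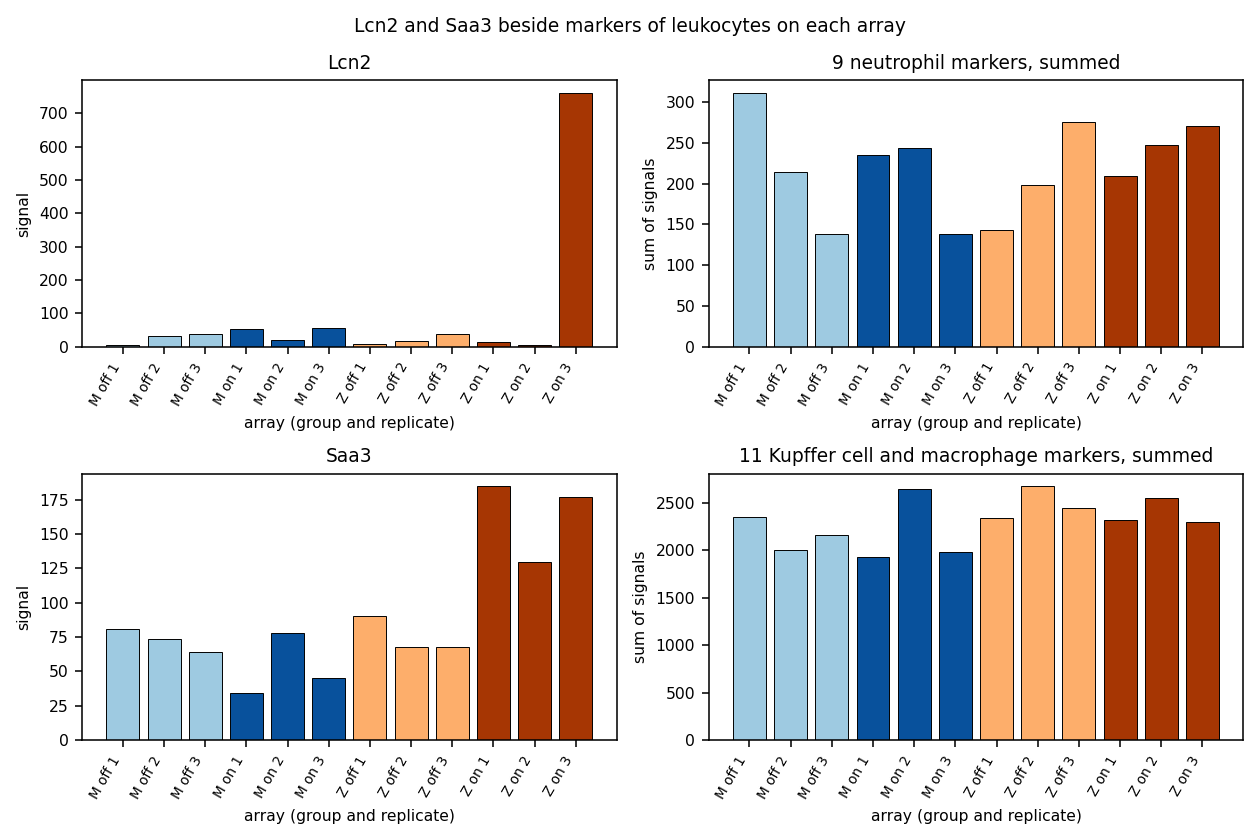
Signals on each of the 12 arrays of Lcn2 and Saa3 (left panels) and summed signals of the neutrophil and the Kupffer cell and macrophage markers (right panels), all bars starting at 0 and coloured by group. Lcn2 reaches 761.2 on Z on replicate 3, where the neutrophil sum is 270.2, and Saa3 is high on all 3 Z on arrays, where the macrophage sum stays between 2302.6 and 2556.1.

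With all arrays, no member probe set was called between Z on and Z off, where 0.0133% of all probe sets were called (3 of 22626). At an unadjusted p under 0.05 there were 2 of 12, Saa3 and Apcs, against 6.29% of all. The same 2 were the member probe sets whose Z on signals lay wholly above Z off (5.22% of all probe sets), and Hpx was the 1 wholly below (6.61%), at -0.27 (adjusted p = 0.865). Of the 12 differences 10 were positive, with a median of 0.63 beside -0.03 over all probe sets. Without replicate 3 of Z on, 5 of 12 were positive and the median was -0.19, beside -0.01 over all. Saa2 turned from 0.75 (SE 1.22, adjusted p = 0.950) to -1.10 (SE 0.334, 95% interval -1.86 to -0.34, unadjusted p = 0.00989, adjusted p = 0.507). Saa1 turned from 0.23 and 0.70 on its probe sets to -1.04 and -0.91, with adjusted p-values of 0.745 and 0.764. Lcn2 turned from 0.99 to -1.24 (adjusted p = 0.870), Hp from 0.04 to -0.21, while Orm2 kept its sign, at 1.13 and 0.59 (adjusted p = 0.831 and 0.907). Leaving out this 1 liver thus turned the signs of Saa1, Saa2, Lcn2 and Hp, and not those of Saa3, Saa4, Orm1, Orm2, Hpx and Apcs.

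**Figure D4:**
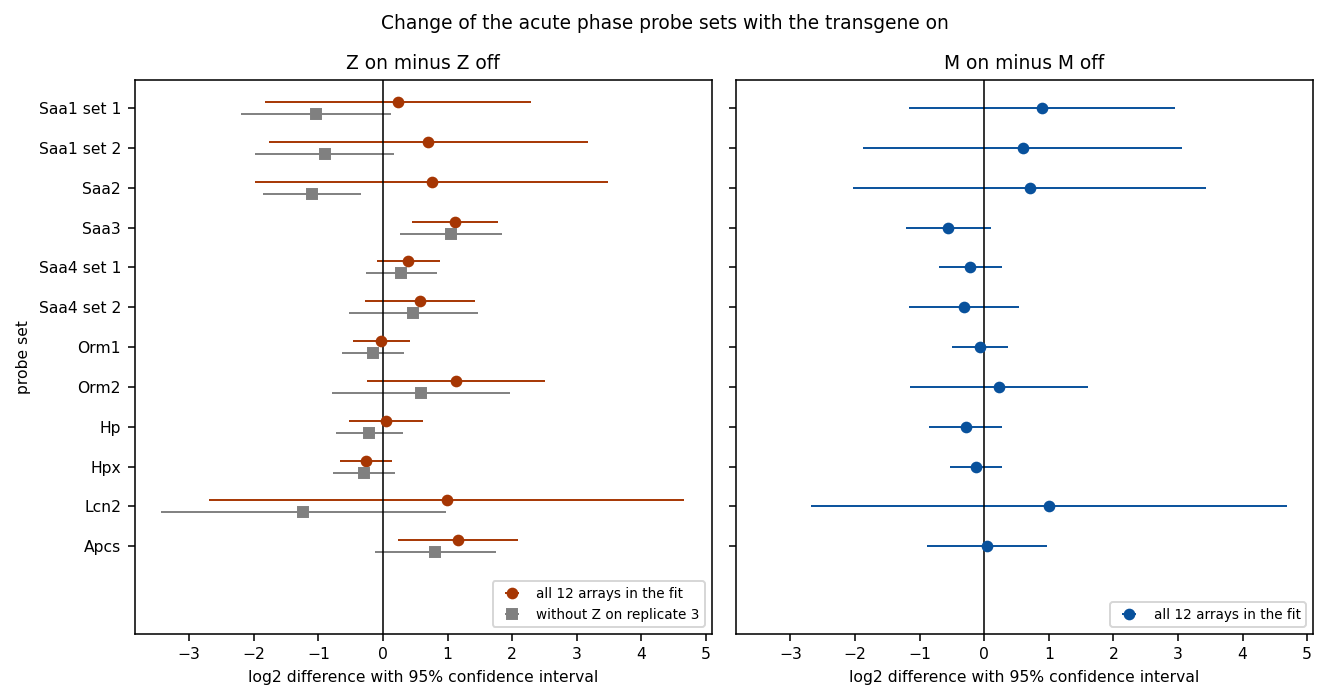
Log2 difference of each member probe set with its 95% confidence interval, Z on minus Z off on the left (circles for all 12 arrays, squares without Z on replicate 3) and M on minus M off on the right. The Saa1, Saa2 and Lcn2 circles lie right of 0 and their squares left of it, whereas Saa3 is at 1.12 and 1.05.

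In the M line no probe set of the whole table was called (0%), and 5.18% had an unadjusted p under 0.05, among them none of the members. The on and off groups overlapped on all 12 member probe sets, where 5.23% of all probe sets lay wholly higher and 5.32% wholly lower in M on. The 12 differences were 6 positive and 6 negative, with a median of -0.01, the same as over all probe sets. Saa1 was 0.89 and 0.60 higher and Saa2 0.71 higher in M on, each with an adjusted p of 1.000 as rounded, and replicate 3 of M on gave the highest signal of its group on all 3 probe sets. The 95% interval of the Saa2 difference ran from -2.02 to 3.44 (SE 1.22) with the spread shared over all 12 arrays. Without replicate 3 of Z on, the same 6 M livers gave 0.71 with an SE of 0.299 and an interval of 0.03 to 1.39 (unadjusted p = 0.0431, adjusted p = 0.950).

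Between the lines with the transgene off, Saa1 and Saa2 read higher in Z off without being called. All 3 Z off livers lay above all 3 M off livers on the first Saa1 probe set and on Saa2, 2 of 12 member probe sets against 8.36% of all, and no member lay wholly lower (6.76%). The second Saa1 probe set overlapped, at 364.7 to 714.3 in Z off and 186.9 to 388.9 in M off. The means were 1077 ± 501 and 339 ± 98.3 for Saa1, and 206 ± 20.2 and 91.2 ± 25.1 for Saa2 (SD, n = 3). The log2 differences were 1.59 (SE 0.919, adjusted p = 0.732) and 1.20 (SE 1.22, adjusted p = 0.855). The fit shares its spread over all groups, so the high Z on liver widens these errors too. Without it the SEs were 0.454 and 0.299, the unadjusted p-values 0.00707 and 0.00319 and the adjusted ones 0.446 and 0.367. Neither was a call, where 0.0707% of all probe sets were called between these groups. None of the members reached an unadjusted p under 0.05 with all arrays, against 7.73% of all. In the remaining 2 Z on livers Saa2 lay at 100.4 and 91.5, within the range of M off.

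Between the groups that made the human proteins, Z on and M on, no member was called (0.00884% of all probe sets), and Saa3 alone had an unadjusted p under 0.05 (6.85% of all). Saa3 and the second Saa4 probe set lay wholly higher in Z on (6.07% of all), the latter by 0.46 (adjusted p = 0.872), and none wholly lower (6.02%). Saa1, at 0.93 and 1.28, and Saa2, at 1.25, changed sign without replicate 3 of Z on, to -0.34, -0.32 and -0.60. The change on expression did not differ between the lines by a call for any member or any other probe set (0%). Besides Saa3, the interaction was 1.12 for Apcs (SE 0.587, adjusted p = 0.933). For Saa2 it was 0.05 with all arrays and -1.80 without replicate 3 of Z on (unadjusted p = 0.0032, adjusted p = 0.570).

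Other acute phase genes of the liver, outside the 10 members, were followed as a list of 31, of which 27 had a probe set. Between Z on and Z off 14 were higher and 13 lower, with a median of 0.04, and none was called. In the M line 13 were higher and 14 lower, with a median of -0.01 and no call. The list members with the smallest unadjusted p in the Z line were Pla2g2a, a secreted phospholipase, at -1.71 (adjusted p = 0.706), A2m, a protease inhibitor, at -2.06 (adjusted p = 0.745), the metallothionein Mt2 at 1.53 (adjusted p = 0.792) and the lipopolysaccharide co-receptor Cd14 at -1.06 (adjusted p = 0.831). Those of the M line were Hamp2, a hepcidin paralog, at 1.16 (adjusted p = 0.889), the pantetheinase Vnn1 at -0.98 (adjusted p = 0.941), the lipopolysaccharide-binding protein gene Lbp at -0.48 and the mannose-binding lectin Mbl2 at 0.33. Hamp2 read 9976.8, 8580.9 and 4016.6 in M on against 2907.4 to 3325.7 in M off. Pla2g2a, A2m and Cd14 were dim, at most 55.8, 36.9 and 57.1 on any array, where small absolute differences make large log2 differences.

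Replicate 3 of Z on was the highest array for 7 of the 27 (25.9%, against 6.34% of all probe sets). Among them, singled out after their values were seen, were Fgl1, a hepatocyte-secreted fibrinogen-like protein, at 4007.2 against 1107.6 and 631.4 in the other Z on livers, and Lbp at 1133.4 against 519.9 and 580.3. Serpina3n, a protease inhibitor, read 1470.6 against 745.7 and 897.5. On that array 2 of the 27 (7.41%) lay at least 1 log2 unit above their group median, against 4.34% of all probe sets, and 3 (11.1%) lay as far below, against 6.81%. Hamp2 was low in that liver, at 1750.9 against 4338.9 and 4287.2.

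Negative acute phase genes, which fall during inflammation, had probe sets for 9 of 12. In the Z line 4 were higher and 5 lower, with a median of -0.01, and none was called. The M line had 3 higher and 6 lower, with a median of -0.03. The smallest p-values belonged to the apolipoprotein Apoa4, at 0.63 (adjusted p = 0.847), the corticosteroid-binding globulin Serpina6, at 0.31 (adjusted p = 0.890), Ahsg at -0.16 and F12 at -0.12. Those of the M line belonged to Serpina6, at 0.37, the tryptophan-degrading enzyme Tdo2, at -0.22, the retinol carrier Rbp4, at -0.14, and F12, at 0.06. Albumin (Alb), named after its values were seen, read 23382.3, 21027.2 and 17456.7 in Z on and 16217.4 to 28641.5 over the other 9 arrays.

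Cytokines, receptors and transcription factors of the acute phase had probe sets for 32 of 34 listed genes. In the Z line 19 were higher and 13 lower, with a median of 0.08, and in the M line 15 were higher and 17 lower, with a median of -0.01. None was called. In the Z line the smallest p-values were those of the tumour necrosis factor receptor Tnfrsf1a at 0.56 (adjusted p = 0.743), Il6 at -1.95 (adjusted p = 0.758), the NF-kappaB subunit Rela at -0.35 and the adaptor Myd88 at -0.37. Il6 read at most 26.7 on any array and 11 on replicate 3 of Z on. For the M line they were those of the NF-kappaB inhibitor Nfkbia at -0.61 (unadjusted p = 0.00705, adjusted p = 0.719), the receptor Il1r1 at -0.75 (adjusted p = 0.894), Bcl3 at 0.71 and Il1b at -0.48. Stat3, the transcription factor below interleukin 6, was named after its values were seen. It read 599.3 on replicate 3 of Z on, the highest of the 12 arrays, against 309.4 and 205.1 in the other Z on livers. The next highest Stat3 signal was close, at 538.3 in Z off replicate 1. The feedback inhibitor Socs3, named in the same way, read 322.9, 44.0 and 278.3 in Z on, which does not single out that liver.

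Binding partners and receptors of the members, such as the haptoglobin receptor Cd163 and the serum amyloid A receptor Scarb1, had probe sets for all 11 listed genes. In the Z line 1 was higher and 10 lower, with a median of -0.30. Over all 22626 probe sets 10634 were higher there, with a median of -0.03. In the M line 2 were higher and 9 lower, with a median of -0.16. Over all probe sets 11073 were higher there, with a median of -0.01. None of the listed genes was called. Tlr4 and Fpr2 were dim, at most 40.1 and 37.2 on any array. The scavenger receptor Cd36 was the 1 that was higher, at 0.75 (adjusted p = 0.785), followed by Scarb1 at -0.30 (adjusted p = 0.871), Tlr4 at -1.45 (adjusted p = 0.871) and Cd163 at -0.34 (adjusted p = 0.894). The smallest p-values of the M line were those of Mmp9 at 1.43, Scarb1 at -0.25, Fpr2 at -0.76 and the lipocalin receptor Slc22a17 at -0.63, each with an adjusted p of 1.000 as rounded. Over all lists with cell type markers included, the only called gene was Alas2, the haem-synthesis enzyme of red cell precursors, at -2.88 in the Z line (adjusted p = 0.00159) and 2.22 in Z off against M off (adjusted p = 0.00832). Z off stood apart from the other groups for Alas2, at 1118.8 to 1456.1 against 136.5 to 306.6.

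Probe sets with 1 gene symbol outside the members were ranked by how closely their log2 signals followed those of 3 members over the 12 arrays. The measure was the root mean square difference of the centred log2 signals. Member probe sets were left out of this ranking, so a member can lie nearer than any gene named here. Closest of those ranked to the first Saa1 probe set was Parm1, at 0.429 beside a standard deviation of 1.28 for Saa1 itself. Parm1 read 43.6 on replicate 3 of Z on and 20.8 and 10.6 in Z off replicates 2 and 1, and at most 7.4 elsewhere. After it came Vps9d1 (0.72), Pgk2 (0.747), B4galt5 (0.789) and Tas1r2 (0.804), none of which read above 31.2 on any array. For Orm2, with a standard deviation of 0.864, they were Adgrl4 (0.263), Cd274 (0.366), Myzap (0.447), Sfswap (0.485) and Cemip2 (0.498). Orm2 and Adgrl4 shared their lowest array, Z off replicate 2, at 7.6 and 13.5. For Lcn2, with a standard deviation of 1.96, no ranked probe set came nearer than Mchr1 (1.15). Hhip (1.20), Ubqln1 (1.30), Itga3 (1.30) and Fanci (1.31) followed. These 5 read at most 39.3 on replicate 3 of Z on.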

How the data were processed

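Liver RNA was hybridised to 1-colour Affymetrix mouse arrays. The deposited values are intensities, 1 linear signal per probe set and array. The submitters' processing notes name RMA, but the deposited signals are linear and their array medians differ (38.7 to 47.0), and no source used here gives the software behind them. No detection calls were used here, and 28.4% of signals lay below 16, where log2 differences are least certain. Of 22690 probe sets, 64 controls were left out. Gene symbols came from the platform annotation, checked by gene identifier against RefSeq (GRCm38.p6), which also gave positions and promoter windows.

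Signals were converted to log2 (1 value of 0 set to 0.1) and fitted with 1 mean per group over 12 arrays in limma 3.58.1 (R 4.3.3; lmFit, eBayes, two-sided). Adjustment ran over 22626 probe sets in each of 5 contrasts. The fit was run on simulated data with independent noise and the same shift in every Z on array. That simulation does not cover 1 outlying array within a group, as met here. The number of arrays limits the precision. Each array is a biological replicate, per the labels. Array numbers were not used to pair the samples in the main fit. Correlations of same-numbered deviations ran from -0.08 to 0.16, with 3 of 18 above 0.1. Those 3 were all between the on and off groups of the same line. With so few arrays per group, such correlations cannot decide whether same-numbered arrays belong together.

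The members, gene lists and motifs were chosen with earlier results of these data known. Named genes were all members and the called list genes. Each other list gave up to 4 genes of smallest p in Z on against Z off and in M on against M off. The 5 single-symbol probe sets outside the members most like Saa1, Orm2 and Lcn2 were also named. Others are said to be named after their values were seen. Lists used the probe set of highest mean per gene. Of 188 list entries, 166 had a probe set. Alternatives were other scaling, offset, probe set filters, variance models, a replicate block, and leaving out each array.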

Additional observations from a re-analysis of the deposited data

How the results depend on the processing

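Over 60 differences of member probe sets, the alternatives gave 1228 values, of which 1158 kept direction and side of the threshold, 2 became calls, none lost a call because there was none, and 68 changed sign, 57 of them when 1 array was left out. The cause of these changes was not tested. No member was called in 4 of the 5 comparisons under any alternative run. In Z on minus M on, 1 member, Saa3, was called with an intensity trend and robust variances and 1, again Saa3, when only probe sets above the median level were tested. Its adjusted p ran up to 0.468 with only those 2 groups in the fit. The replicate block called none of the 12 members in any comparison, with adjusted p-values of Saa3 of 0.347 in Z on minus M on, and it changed no member call. With the block, the whole table had 1 call in Z on minus Z off, 0 in Z on minus M on and 6 in Z off minus M off, against 3, 2 and 16 without it. Over the alternatives other than leaving out an array, those counts ran from 0 to 8, 0 to 22 and 0 to 51, and in M on minus M off from 0 to 8. Leaving out 1 array gave 1 to 5, 0 to 5, 1 to 11 and 0 to 2 in the same order, and 0 to 2 for the interaction. Small differences changed sign with scaling. Centring each array on its median turned Orm1 to 0.015 in Z on minus Z off and -0.0011 in Z off minus M off, Saa3 to -0.017 in Z off minus M off and the Lcn2 interaction to 0.024, which was 0.026 after quantile normalization. Adding 16 to every signal turned Lcn2 to 0.47 in Z on minus M on and to 0.60 in the interaction. Array weights turned Orm1 to 0.0094 in Z on minus Z off, Apcs to -0.089 in M on minus M off, and the interactions of Saa2 and Lcn2 to -0.033 and 0.22. Leaving out 1 array at a time moved the following differences across 0. For Z on minus Z off the ranges were -0.17 to 0.094 for Orm1, -1.04 to 0.93 for Saa1 set 1, -0.21 to 0.18 for Hp, -0.91 to 1.54 for Saa1 set 2, -1.10 to 1.71 for Saa2 and -1.24 to 2.53 for Lcn2. For M on minus M off they were -0.33 to 0.27 for Apcs, -0.13 to 0.019 for Orm1 and -0.0020 to 0.40 for Orm2. For Z on minus M on the ranges were -0.13 to 0.059 for Hpx, -2.36 to 1.41 for Lcn2, -0.64 to 0.29 for Orm2, -0.34 to 1.63 for Saa1 set 1, -0.32 to 2.12 for Saa1 set 2, -0.60 to 2.21 for Saa2, -0.039 to 0.22 for Orm1 and -0.056 to 0.69 for Apcs. For Z off minus M off they were -0.98 to 0.37 for Lcn2, -0.094 to 0.12 for Saa3, -0.019 to 0.20 for Hpx, -0.028 to 0.20 for Orm1 and -0.72 to 0.055 for Saa4 set 2. For the interaction they were -1.50 to 0.94 for Saa1 set 2, -1.80 to 1.01 for Saa2, -2.24 to 1.53 for Lcn2, -0.11 to 0.16 for Orm1 and -1.93 to 0.035 for Saa1 set 1. Where an array was left out, its group had 2 arrays and shared the spread of the others. Leaving out replicate 3 of Z on lowered the SE of Saa2 in Z off minus M off from 1.22 to 0.299. With 16 added to every signal, chosen after seeing the data, the ratio of that array to its group median was 26.2 for Lcn2 (55.6 as deposited) and 38.9 for Saa2 (44.9).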
